A study of Homo sapiens with 2 samples.

Results

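The albumin gene family was examined in CD133-negative PLC8024 cells, a human hepatocellular carcinoma (HCC) line, on 2 expression arrays. The family comprises ALB, AFP, AFM and GC, and its members were taken as all probe sets annotated with exactly 1 of these symbols. This gave 6 probe sets for 3 genes, of 19775 genes with such a probe set in all: 4 for ALB, 1 for AFP and 1 for AFM. GC, which encodes the vitamin D-binding protein, had no probe set that could be assigned to it and was not analysed here. Per the labels' protocols, cells lacking CD133 were sorted from the line by flow cytometry and transduced with lentivirus carrying either miR-130b or no insert (empty vector, EV). The sample label of the miR-130b array speaks of a transfection instead. Each condition has 1 array, so there is no replicate error, no difference was tested, and what else separated the 2 cultures cannot be told apart from the vector.

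Albumin, the main protein of plasma, carries fatty acids, hormones and drugs and is secreted by hepatocytes. Alpha-fetoprotein, encoded by AFP, takes its place in the fetal liver and yolk sac, is switched off after birth and returns in many liver tumours, where it serves as a serum marker. Afamin, encoded by AFM, binds vitamin E and lipid-modified WNT proteins, and GC carries vitamin D metabolites and actin monomers. ALB, AFP and AFM arose by gene duplication and lie next to each other on chromosome 4. Their promoters are textbook examples of liver-specific control by HNF1, C/EBP and FOXA factors.

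The introduced microRNA is shown first, because it is the only stated difference between the arrays. The labels do not name an arm of the hairpin, and the mature microRNA was not measured here. The mature arms in RefSeq (GRCh38.p14, chr22:21653316-21653336 and chr22:21653354-21653375, plus strand) read as follows, with the seed, bases 2 to 8, in capitals.
hsa-miR-130b-5p: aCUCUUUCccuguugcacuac
hsa-miR-130b-3p: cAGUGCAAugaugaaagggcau

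The 250 bases before the annotated start are shown for ALB, AFP and AFM, because ALB and AFP were both lower in the miR-130b array while AFM was below the detection floor. The sequences are from RefSeq (GRCh38.p14), all on the plus strand: ALB at chr4:73404037-73404286, AFP at chr4:73435971-73436220 and AFM at chr4:73481495-73481744. Capitals mark exact matches to GTTAAT, an arm of the HNF1 site, and to the TATA box TATAAA.
ALB: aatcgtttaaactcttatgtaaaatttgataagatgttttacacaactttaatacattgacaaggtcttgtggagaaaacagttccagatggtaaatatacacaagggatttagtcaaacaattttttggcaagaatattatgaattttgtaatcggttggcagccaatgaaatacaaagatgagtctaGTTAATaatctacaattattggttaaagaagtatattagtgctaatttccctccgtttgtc
AFP: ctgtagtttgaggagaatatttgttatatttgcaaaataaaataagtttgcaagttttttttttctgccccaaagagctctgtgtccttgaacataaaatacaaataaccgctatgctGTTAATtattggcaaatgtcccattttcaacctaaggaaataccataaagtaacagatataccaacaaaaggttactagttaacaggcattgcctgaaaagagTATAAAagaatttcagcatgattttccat
AFM: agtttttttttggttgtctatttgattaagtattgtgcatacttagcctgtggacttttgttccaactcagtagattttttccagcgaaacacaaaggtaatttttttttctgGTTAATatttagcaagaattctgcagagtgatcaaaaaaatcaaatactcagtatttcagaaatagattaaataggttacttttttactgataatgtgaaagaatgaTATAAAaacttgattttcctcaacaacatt

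GTTAAT, searched on both strands, occurred once in each of the 3 windows, starting at base -61 from the ALB start, -132 from the AFP start and -137 from the AFM start. It was present in 6.22% of all 27305 promoter windows of that length. TATAAA occurred at -29 in AFP and at -30 in AFM, with no match in the ALB window, and in 11.1% of all windows. The CCAAT box had 2 matches in ALB, 1 in AFP and none in AFM, against 33.0% of all windows with a match. The C/EBP pattern TTNNGNAA matched 4 times in ALB, 1 time in AFP and 4 times in AFM, of which 2 overlap on opposite strands, and 33.6% of all windows held it. The FOXA pattern TGTTTNC matched 1 time in ALB and is held by 15.6% of windows. Neither the HNF4 pattern CAAAGNCCA (1.31% of windows) nor the full HNF1 palindrome (1 window in all) matched any of the 3. The family windows are poor in G and C bases, which make up 30.0% of the ALB window, 31.6% of AFP and 28.0% of AFM, against a median of 58.0% over all windows. Among the 1631 windows with at most 35% of G and C, GTTAAT occurred in 20.7%, TATAAA in 46.0%, the C/EBP pattern in 71.9% and the FOXA pattern in 30.5%. A match describes letters in a window and not a bound site.

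Expression is given as the authors' RMA values on the log2 scale, where a difference of 1 is a 2-fold change. A probe set counted as measured when its brighter array reached 4.88, which is the median value of the non-control probe sets over the arrays. This left 28123 probe sets and 13260 genes, each gene represented by its brightest measured probe set. Array medians were 4.88 in both. The only spread available is technical: the difference varied between probe sets of the same gene with a pooled SD of 0.202, over 6047 genes. PROM1, which encodes CD133, read 9.19 in the EV array and 6.07 in the miR-130b array, above the floor in both. This is RNA on 1 measured probe set, while the cells were sorted as lacking CD133 by flow cytometry, so the measures differ.

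ALB was lower in the miR-130b array in every probe set, and in all 3 measured ones by at least 2-fold. The brightest, 211298_s_at, read 11.99 in the EV array and 10.96 in the miR-130b array, a difference of -1.03 or 2.05-fold. Probe set 1565228_s_at read 9.94 and 7.56, a difference of -2.38 or 5.20-fold. Probe set 214842_s_at read 7.55 and 5.99, a difference of -1.56 or 2.95-fold. All 3 stayed above the floor in both arrays, so albumin transcript was measured in both cultures. The fourth, 214837_at, lay below the floor in both arrays, at 4.02 and 3.88, and differed by -0.14. Fewer albumin-expressing cells and less albumin RNA per cell cannot be told apart in these bulk samples. Over all measured genes, 1.52% were lower by 2-fold or more and 2.68% by 1.5-fold or more, while 0.0% and 0.294% were higher by as much.

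**Figure D1:**
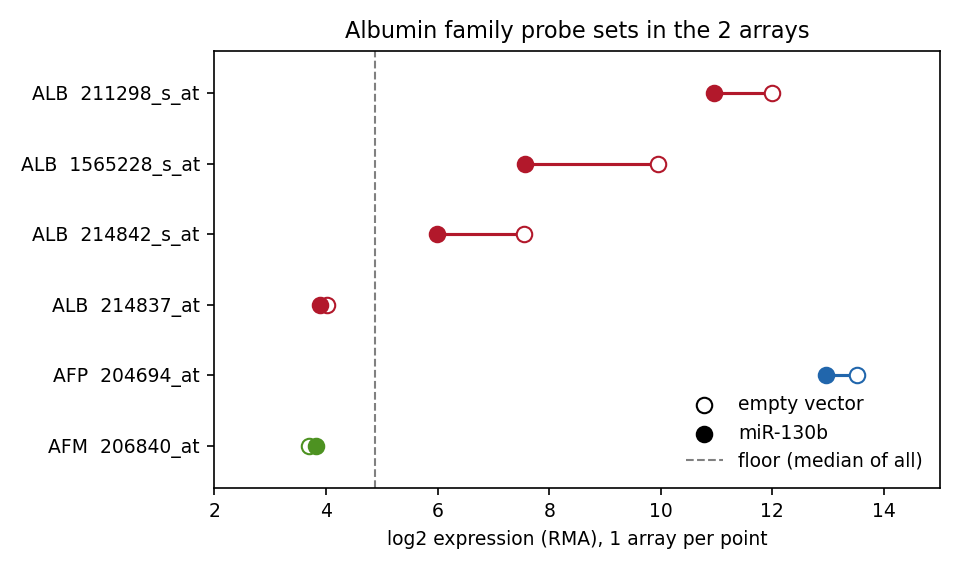
Log2 expression (x axis) of each of the 6 albumin family probe sets (rows) in the empty vector array (open circles) and the miR-130b array (filled circles), 1 array per point; the dashed line is the floor of 4.88. The 3 measured ALB probe sets and the AFP probe set moved left in the miR-130b array, and the dimmest ALB probe set and the AFM probe set lay below the floor in both.

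The ALB probe sets shared their direction but not their size. Their differences had a mean of -1.66, which is 3.15-fold, an SD of 0.68 (3 probe sets of the same 2 arrays, not replicates) and a range of 1.34. Over the 2511 genes that have 3 or more measured probe sets, the median range was 0.278 and the 95th percentile 0.683, and 21 genes, 0.836%, had a range at least as wide as that of ALB. The size of the ALB decrease is therefore given as 2.05-fold to 5.20-fold according to probe set. All 3 measured ALB probe sets carry the suffix _s_at, which marks probes shared by more than 1 transcript. The 3' to 5' signal ratio of ACTB was 1.95 in the EV array and 2.41 in the miR-130b array, and that of GAPDH 1.37 and 1.52. The part of RNA or labelling quality in the ALB differences was not tested, and probe positions were not used here.

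AFP, on its only probe set 204694_at, was among the brightest signals of both arrays. It read 13.5 in the EV array, where 113 of 54613 non-control probe sets were brighter, and 13.0 in the miR-130b array, where 227 were. The difference of -0.57 is 1.49-fold, just short of the 1.5-fold rule (0.58 on the log2 scale). Probe sets this bright differed little between the arrays. Within 0.5 of the mean level of AFP lay 201 probe sets, whose differences ran from -0.57 to 0.18 with an SD of 0.0894, and AFP itself was the lowest of them. None of these 201 was at least 1.5-fold lower (0.0%). AFP thus stood 363rd from the lowest of 13260 genes by difference and ALB 193rd, but AFP stood first within its own range of brightness.

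The same view by brightness placed the ALB probe sets low as well. Of 656 probe sets within 0.5 of the level of 211298_s_at, 0.762% were at least 1.5-fold lower and 0.305% at least 2-fold lower, and this ALB probe set had the second lowest difference, against a lowest of -1.05. Around 1565228_s_at, 1.61% of 3542 probe sets were at least 1.5-fold and 0.734% at least 2-fold lower, and ALB stood 10th from the lowest. Around 214842_s_at the shares were 3.09% and 1.58% of 5239, and ALB stood 38th. These ranks describe these 2 arrays and hold no variation between cultures.

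**Figure D2:**
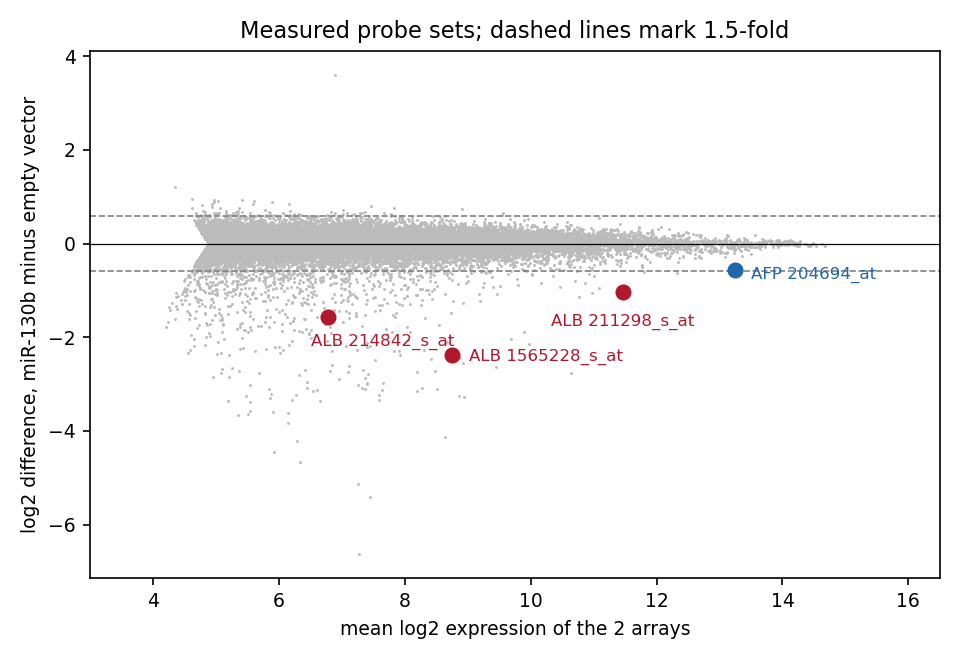
Log2 difference, miR-130b minus empty vector (y axis), against the mean log2 expression of the 2 arrays (x axis) for the 28123 measured probe sets (grey); ALB probe sets are red and AFP is blue, and dashed lines mark 1.5-fold. The spread narrows with brightness, and AFP with -0.57 and ALB 211298_s_at with -1.03 lie below the bulk at their level.

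AFM lay below the floor in both arrays. Its only probe set, 206840_at, read 3.70 in the EV array and 3.81 in the miR-130b array, so the difference of 0.11 compares values near background. Among the afamin and WNT secretion genes only NOTUM, which removes the lipid from WNT proteins, was measured, with a difference of 0.06, while WLS lay below the floor like AFM. Of the family, 2 genes were therefore measured. Both had lower values with miR-130b, and 1 of them passed 1.5-fold, against 2.68% of all measured genes lower by as much. The median of the 2 was -0.80, against a median of 0.03 over all measured genes.

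The chromosomal neighbours of ALB and AFP were within 1.5-fold about as often as all measured genes, with 1 of 17 lower against 2.68% of all genes. In the RefSeq order no protein-coding gene separates ALB, AFP and AFM, and 4 lie between GC and ALB. Of the 24 other protein-coding genes from the 10th before GC to the 10th after AFM, 17 were measured, with a median difference of -0.02. The flanking genes ANKRD17 and COX18 differed by -0.13 and 0.15, and RASSF6 beside AFM lay below the floor. CXCL6, a neutrophil-attracting chemokine in the cluster beyond AFM, was the only neighbour past 1.5-fold, at 6.86 in the EV array and 3.51 in the miR-130b array from 1 probe set. The lower value is below the floor, so its fold is not exact. CXCL8 in the same cluster had differences of 0.21 and -0.46 in its 2 measured probe sets, and CXCL5 had -0.44 and -0.97. The CXCL5 probe set with -0.97 read 5.75 in the EV array and 4.78, below the floor, in the miR-130b array.

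**Figure D3:**
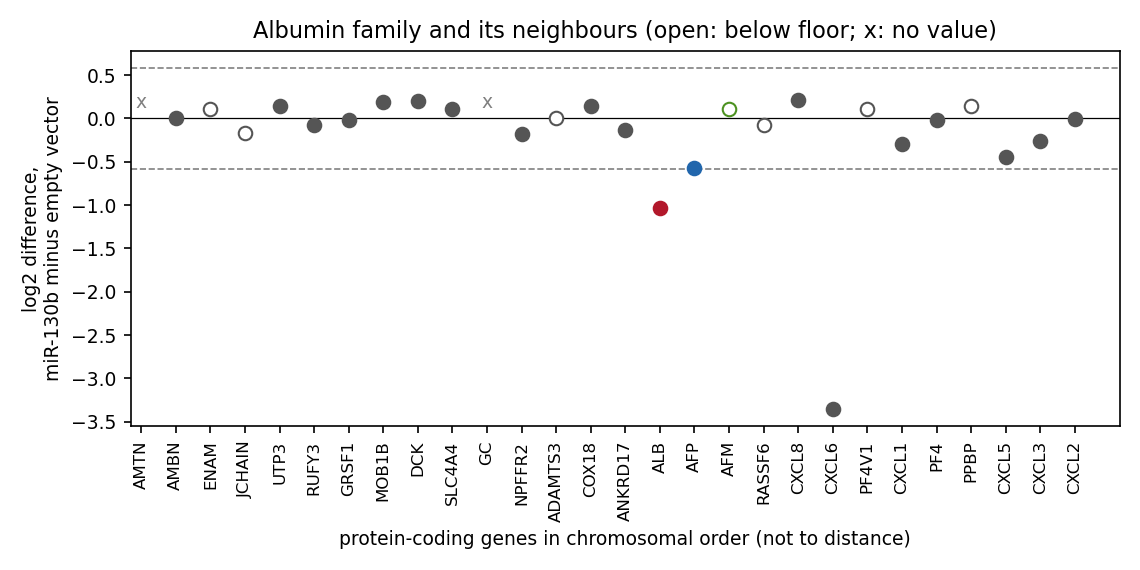
Log2 difference, miR-130b minus empty vector (y axis), for protein-coding genes in chromosomal order around the family (x axis, order only); filled points are measured genes, open points lay below the floor in both arrays, x marks genes without a value, and dashed lines mark 1.5-fold. ALB with -1.03, AFP with -0.57 and CXCL6 with -3.36 stand below neighbours that lie between -0.44 and 0.21.

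Among other plasma proteins made by hepatocytes, genes past 1.5-fold were about as rare as among all genes. Of 29 measured, 1 (3.45%) was at least 1.5-fold lower, against 2.68% of all measured genes, and 0 higher. The median was 0.00, and 22 differed by less than the SD between probe sets of a gene. By brightest probe set the thyroxine carrier TTR was the exception, at 9.26 in the EV array and 5.92 in the miR-130b array. It was 10.1-fold lower on its only measured probe set. The plasminogen gene PLG differed by 0 on its brightest probe set and by -0.95 on its other measured one. The latter read 5.22 in the EV array and 4.28, below the floor, in the miR-130b array. The transferrin gene TF differed by 0.03, the fibrinogen chain gene FGB by 0.01 and SERPINA1, which encodes alpha-1-antitrypsin, by 0.08, all read above 13 on the log2 scale in both arrays. The antithrombin gene SERPINC1 differed by -0.54, the apolipoprotein gene APOA1 by -0.51 and the retinol carrier RBP4 by -0.43. SERPINC1 read 5.08 in the EV array and 4.55 in the miR-130b array, so it passed the floor only through the EV array. APOA1 differed by -0.41 in its other suffixed probe set, which read 10.78 in the EV array and 10.37 in the miR-130b array. In its probe set without a suffix APOA1 differed by 0.11. That probe set read just above the floor, at 4.97 in the EV array and 5.08 in the miR-130b array. The 13 genes for folding and export of disulfide-bonded proteins, a class to which albumin belongs, all stayed within 1.5-fold, with a median of 0.05. Among them the oxidase ERO1B differed by 0.38, the translocon subunit SEC61A1 by -0.33, the protease FURIN by -0.21 and the cargo receptor SURF4 by -0.14.

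Among 16 measured transcription factors known to act on ALB and AFP, 2 (12.5%) were lower by 1.5-fold or more and 0 higher. Over all measured genes 2.68% were lower by as much, and the list median was -0.06. Both of the lower factors were above the floor only in the EV array, so they could enter the count only as lower. No exact fold is given for them. GATA6, an endodermal factor, read 7.33 in the EV array and 3.69 in the miR-130b array, and the orphan receptor NR2F1 read 5.90 and 3.73, each on 1 measured probe set. NR5A2, an activator of AFP, differed by -0.49, and all 3 of its measured probe sets were lower. TBX3 differed by 0.36 in its brightest probe set, while its 3 measured probe sets ran from -0.22 to 0.36. By brightest probe set CEBPA, the C/EBP factor of mature hepatocytes, differed by -0.26, CEBPB by 0.17 and CEBPD by -0.06. FOXA3 differed by -0.33, FOXA1 by -0.06 and FOXA2 by -0.04. DBP and ONECUT1 differed by 0.27 and 0.26.

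The AFP repressors did not move as a group. ZBTB20, a zinc finger protein that silences AFP in the liver after birth, read 8.57 in the EV array and 7.40 in the miR-130b array in its brightest probe set, which is 2.24-fold lower. All 8 of its measured probe sets were lower, by -0.52 to -1.62. ZBTB20 and its target AFP were thus both lower in the miR-130b array. ZHX2, another repressor of AFP, differed by 0.02, ZHX3 by -0.10 and ZFHX3 by 0.09. Thus 1 of 4 measured repressors (25%) was at least 1.5-fold lower, against 2.68% of all measured genes, and the list median was -0.04.

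**Figure D4:**
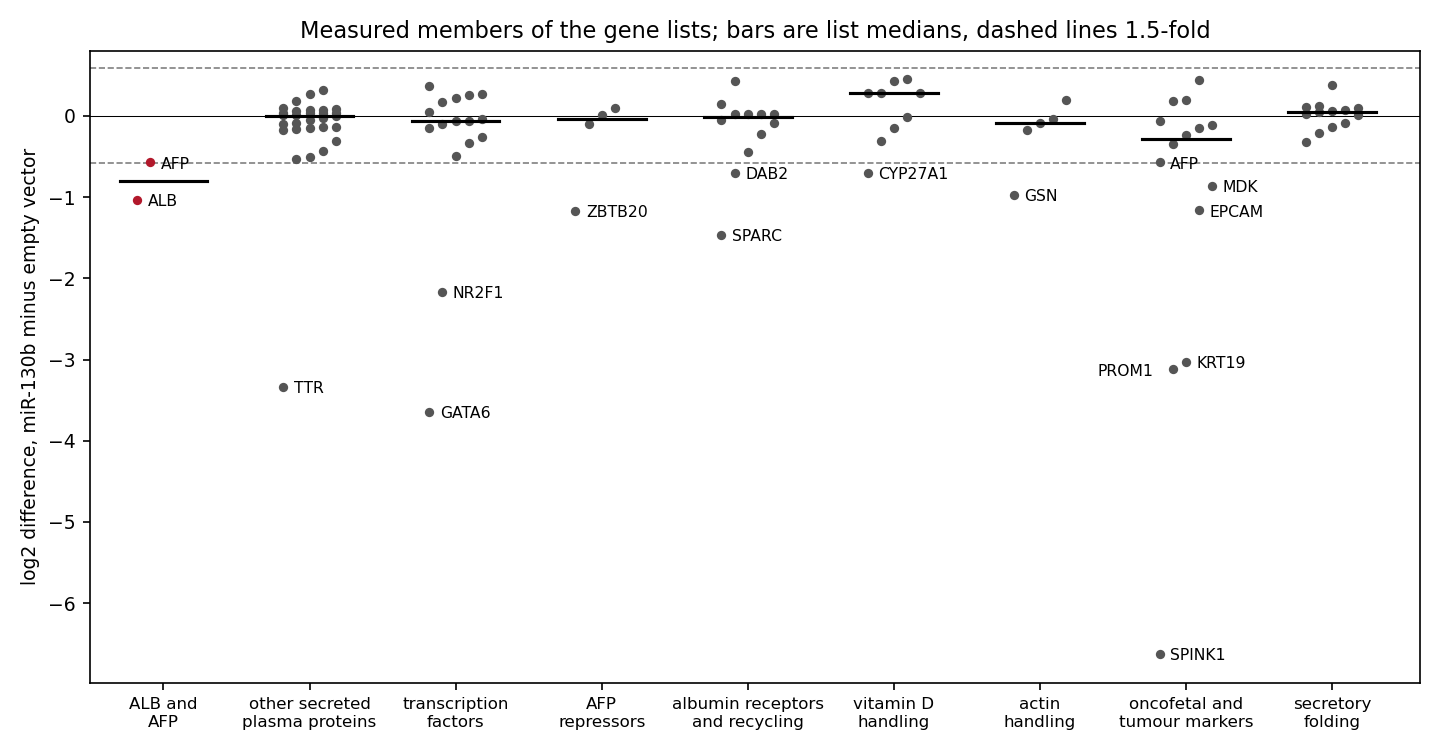
Log2 difference, miR-130b minus empty vector (y axis), of each measured member of 9 gene lists (x axis; the afamin and WNT list, with 1 measured member, is not drawn), with black bars at list medians and dashed lines at 1.5-fold; ALB, AFP and members at least 1.5-fold lower are named. ALB and AFP lie at -1.03 and -0.57, while the medians of the other lists drawn run from -0.29 for the oncofetal and tumour markers, which include AFP, to 0.28 for vitamin D handling.

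Genes that take up or recycle albumin showed 2 of 12 measured members (16.7%) at least 1.5-fold lower and 0 higher. Over all measured genes 2.68% were lower by as much, and the list median was -0.01. SPARC, a matrix protein that binds albumin, read 6.27 in the EV array and 4.80 in the miR-130b array, where it was just below the floor, and counted as measured only through the EV array. DAB2, the endocytic adaptor of megalin, was lower by 1.63-fold in the brightest of its probe sets, and 4 of its 5 measured probe sets were lower. LRP2, which encodes megalin itself, was higher by 0.43 and 0.37 in its 2 probe sets, short of 1.5-fold. CAV1, the caveolar coat protein, differed by -0.45 and -1.71 in its 2 measured probe sets. The one with -1.71 read 6.24 in the EV array and 4.53, below the floor, in the miR-130b array, so its size is not exact.

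The ligand and cargo partners of GC were examined although GC was not. Of 9 measured vitamin D genes, 1 (11.1%) was at least 1.5-fold lower, against 2.68% of all measured genes, and 0 higher. The list median was 0.28. CYP27A1, a sterol hydroxylase that also acts on vitamin D, was 1.63-fold lower, from 6.72 to 6.02. CYP27B1, which makes the active hormone, differed by 0.45, CYP24A1, which degrades it, by 0.29, and the receptor gene VDR by 0.29. Its partner RXRA differed by -0.30 in its brighter measured probe set and by 0.02 in the other. Among 5 measured genes of actin monomer handling, the filament-severing protein GSN was lower by 1.96-fold in the brighter of its measured probe sets and differed by -0.16 in the dimmer. TMSB4X, PFN1 and CFL1 differed by 0.19, -0.17 and -0.08, and the list median was -0.08.

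AFP was also viewed beside other markers of fetal liver and liver tumours. Of 14 measured, 5 were at least 1.5-fold lower and 0 higher, against 2.68% of all measured genes lower, with a median of -0.29. The list includes AFP and was drawn up with earlier results of these data known. Its count beside the share of all genes is therefore a description and no test. The 5 were SPINK1, a trypsin inhibitor, with -6.63, PROM1 with -3.12, the keratin KRT19 with -3.03, the adhesion molecule EPCAM with -1.16 and the growth factor MDK with -0.86. With suffixed probe sets (_x_at, _s_at) left out, 2 were lower by 1.5-fold or more, KRT19 and MDK. The only measured probe sets of SPINK1, PROM1 and EPCAM carry a suffix, so these genes had no value in that setting. SPINK1, KRT19 and EPCAM were below the floor in the miR-130b array, at 3.96, 4.02 and 4.09, so these 3 passed the floor only through the EV array and their differences are not exact. The imprinted gene DLK1 had probe sets of opposite sign, with 0.44 and -1.63, both at low signal. The first read 5.01 in the EV array and 5.46 in the miR-130b array. The second read 5.75 in the EV array and 4.12, below the floor, in the miR-130b array.

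The genes closest to ALB in the plane of the 2 array values were SET, LIN28B, FNDC3B, CALD1 and DSTN, at Euclidean distances of 0.480 to 0.559 on the log2 scale over these 2 arrays. CALD1 differed by -0.94 and DSTN by -0.60, against -1.03 for ALB, and the others by -0.30 to -0.36. Those closest to AFP were KRT18, FN1, UBB, EEF2 and TUBA1C, at 0.269 to 0.351, with differences from -0.27 to -0.08. The distance takes in the level as well as the change, and it says nothing of shared control.

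The hepatocyte character of the cells was checked on marker genes. Of the hepatocyte markers other than ALB, 6 could be assigned a probe set and all 6 read above the floor in both arrays, between 9.26 and 14.1 in the EV array and between 5.92 and 14.2 in the miR-130b array. Leukocyte, endothelial and stromal markers had 1 of 4, 2 of 5 and 5 of 6 above the floor: LYZ, PECAM1 and TEK, and COL1A1, COL1A2, PDGFRB, DCN and THY1. PTPRC, CDH5, VWF and KDR lay below it in both arrays. Of 6 biliary and progenitor markers all were measured, and their mean level was 6.73 in the EV array and 5.73 in the miR-130b array. They did not move together: KRT19, SPP1, EPCAM and SOX9 differed by -3.03, -1.91, -1.16 and -0.30, but KRT7 and CFTR by 0.18 and 0.23. KRT19 and EPCAM passed the floor only through the EV array. The stromal mean was 5.89 and 5.31, in which COL1A2 differed by -3.08. Of 3 yolk sac or germ cell markers 2 were above the floor, SALL4 with a difference of -0.01 and APOA4 with -0.09. The part of a shift in the mixture of cells in the ALB and AFP differences was not tested.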

How the data were processed

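Total RNA of 2 cultures, 1 per condition, was hybridised after biotin labelling. The authors deposited 1 log2 value per probe set and array for 54675 probe sets. RMA, which corrects background, normalizes arrays to a shared distribution and summarises probes, is named in the submitters' processing notes, with its version and settings not given in the sources used here. RMA compresses folds at low signal, and the number of arrays limits precision.

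Names came from the platform annotation at GEO, which gave 1 symbol to 41091, several to 1801 and none to 11721 of the 54613 non-control probe sets, and Entrez identifiers of 41037 were found in the RefSeq table (GRCh38.p14). Promoter windows matched 3 of the 4 members. A planned protein comparison was not run. From the log2 values the difference miR-130b minus EV was computed and counted past 1.5-fold and 2-fold, as rules of size. Named were all members, from each of 10 gene lists the genes past 1.5-fold or else the largest differences up to 4, neighbours past 1.5-fold, the 5 nearest genes by Euclidean distance and PROM1. ANKRD17, COX18, RASSF6, CXCL8, CXCL5 and further list members were added after their values were seen. The members and lists were chosen with earlier results of these data known, so list counts beside the share of all genes are descriptions and no tests. List members without a probe set of 1 symbol were not analysed here. The counting code was run on simulated data with planted differences and noise kept below the 1.5-fold rule. That run checked the code only and says nothing of how reliable the counts are here. Alternatives dropped the floor, raised it to the 75th percentile (6.98), averaged the measured probe sets, left out the suffixes _x_at and _s_at, or centred by loess (span 0.3). Software was Python 3.11.15, numpy 2.4.6, pandas 2.3.3 and statsmodels 0.14.6, and plots matplotlib 3.10.9.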

Additional observations from a re-analysis of the deposited data

How the results depend on the processing

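AFP differed by -0.57 under all 5 alternatives. ALB was -1.03 without a floor and with the floor at the 75th percentile, -1.05 after loess centring and -1.66 with the mean of its measured probe sets. Without probe sets of the suffixes _x_at and _s_at ALB had no value, since its remaining probe set lies below the floor. In that setting ZBTB20 differed by -0.52, short of 1.5-fold, on its brightest remaining probe set. Its other measured probe sets without these suffixes differed by -0.72 to -1.62, all past 1.5-fold. The one with -1.62 read below the floor in the miR-130b array. With the floor at the 75th percentile, 192 genes were at least 1.5-fold lower, 16 at least 1.5-fold higher and 117 at least 2-fold lower, because fewer genes were counted. GSN differed by -0.56 with the mean of its measured probe sets, below 1.5-fold. A value was taken as moved when it shifted by more than the SD between probe sets, or a count by more than 1.5 times. Among the gene lists, 8 of 49 counts of lower members and 4 of 49 medians moved. No paired analysis was possible because each condition has 1 array.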
